A study of Mus musculus with 60 samples.

Results

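The comparison described here is that of Glo1 knockout (KO) mice with wild-type (WT) mice in the striatum, averaged over 2 diets. It used all 20 of the 60 RNA-seq libraries of the series whose labels give the striatum as the tissue, 10 KO and 10 WT, each from a different mouse. The 4 groups held 5 mice each: each genotype was fed from 8 to 12 weeks of age either normal chow, whose vitamin B6 content was 1.4 mg per 100 g, or vitamin B6-lacking chow with 5 µg per 100 g. The same 20 mice also gave a prefrontal cortex and a hippocampus library each, which were used only to ask whether a difference in the striatum was also seen elsewhere. All 10 KO libraries carry the batch label 1 and all 10 WT libraries the batch label 2, so genotype and batch cannot be told apart in any comparison of KO with WT below. The labels name neither the strain, the sex nor the kind of Glo1 allele.

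Glo1 encodes glyoxalase 1, which joins methylglyoxal, a reactive by-product of glycolysis, to glutathione; glyoxalase 2, encoded by Hagh, then releases D-lactate. Vitamin B6 compounds can also trap reactive carbonyls, and pyridoxal phosphate, the active form of the vitamin, is the cofactor of many enzymes of amino acid and transmitter metabolism. The striatum is made up mostly of GABAergic medium spiny neurons that carry the dopamine receptor Drd1 or Drd2.

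The striatum libraries held between 7640047 and 13384356 counts, and their RNA integrity numbers (RIN) lay between 7.8 and 9.0 in WT and between 7.8 and 8.8 in KO mice. The vitamin B6 level given for each mouse, in a material that the labels do not name, was 58.25 to 78.09 ng/µl on the normal diet and 2.25 to 5.63 ng/µl on the lacking diet. The tissue label was checked with the deposited RPKM values (counts per gene length and library total). Ppp1r1b, the DARPP-32 protein of medium spiny neurons, had a median of 249 RPKM in the striatum, 8.24 in the prefrontal cortex and 5.42 in the hippocampus, and Drd2 had 120, 0.495 and 1.13 RPKM. Slc17a7, the vesicular glutamate transporter of cortical neurons, was present at 3.64 to 32.3 RPKM in the striatum libraries, against a median of 112 RPKM in the prefrontal cortex.

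Glo1 was examined first, because it checks the genotype labels. In CPM (counts scaled to a common library total), the WT libraries held 34.2 at the lowest, 38.0 at the median and 46.8 at the highest, and the KO libraries 0.176, 0.422 and 1.01. The groups lay far apart, with 2 to 10 Glo1 counts in each KO library against 299 to 607 in each WT library. On the log2 scale, KO minus WT was -6.38 (SE 0.155, Benjamini-Hochberg (BH)-adjusted p 2.74e-20, edgeR, n = 10 per genotype). A level of 3 counts, the floor used here, corresponds to 0.224 to 0.393 CPM depending on the library, and 3 KO libraries lay under it.

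Over both diets 28 of 13311 tested genes, 0.21%, passed an adjusted p of 0.05 in edgeR: 10 genes (0.0751%) rose in KO and 18 (0.135%), Glo1 among them, fell. The KO and WT libraries did not overlap in CPM for 12 genes (0.0902%), and all 12 were among the 28. An unadjusted p under 0.05 was reached by 821 genes, 6.17%, where 666 would be expected without any difference. The changes ran from -6.38 to 2.43 on the log2 scale, and 9 of the 28 genes changed at least 2-fold in size; the median over all tested genes was -0.00208. All 28 genes lie on chromosome 17, the chromosome of Glo1, as described further below.

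**Figure D1:**
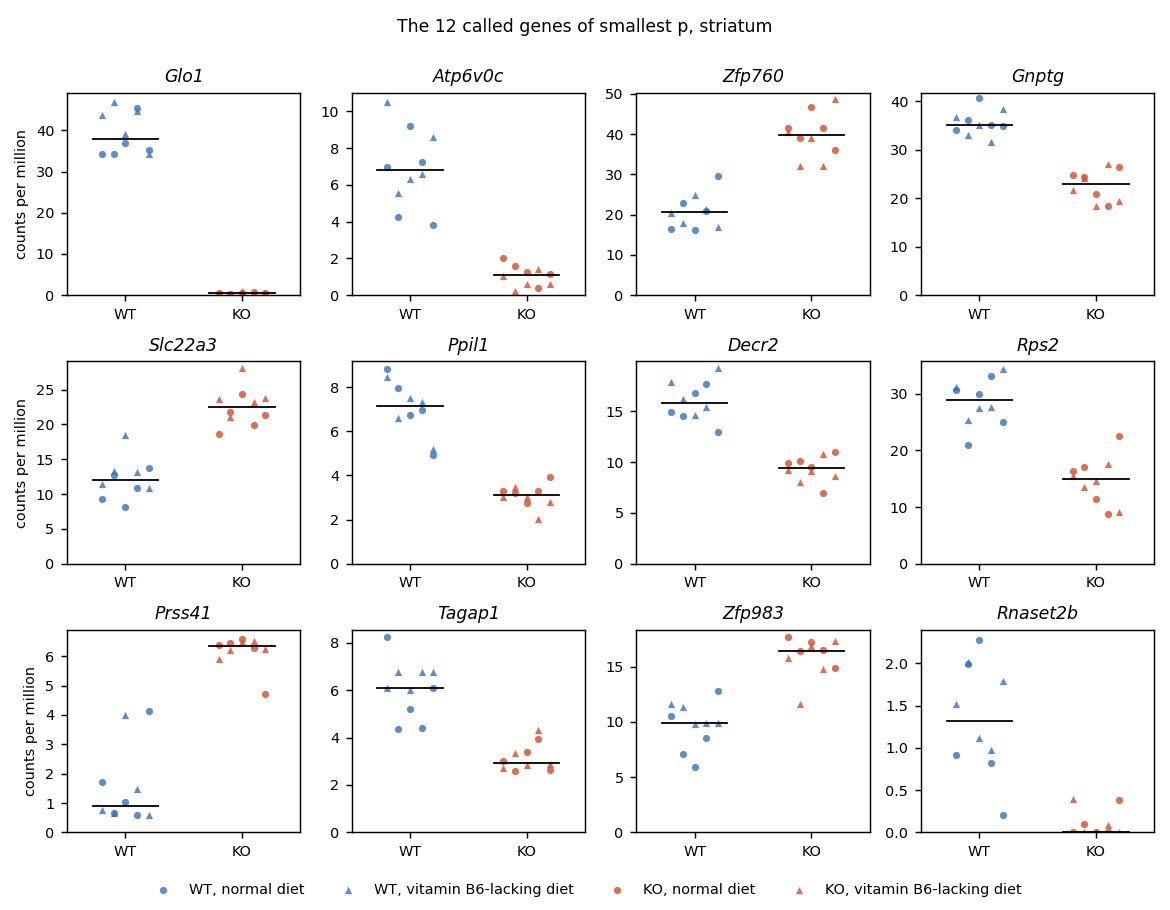
Levels in CPM of the 12 genes with the smallest p in the comparison of KO with WT striatum; each point is 1 library (circles, normal diet; triangles, vitamin B6-lacking diet; 10 per genotype), lines are medians, and axes start at 0. The genotypes separate for 9 of these 12 genes and overlap for Rps2, Zfp983 and Rnaset2b.

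Described by role, a grouping made after the calls were known, the changed genes included 3 that act in the acidic endosomal and lysosomal system. Atp6v0c encodes the proteolipid subunit that forms the membrane ring of the V-ATPase, the proton pump of these compartments. Its WT libraries held 3.81, 6.80 and 10.5 CPM (lowest, median, highest) and its KO libraries 0.239, 1.08 and 2.01 CPM, with no overlap. It fell by 2.67 on the log2 scale (SE 0.238, adjusted p 2.11e-07). Of its 75-base stretches, the length of a read, 9.24% also occur in Atp6v0c-ps2, so that its level is uncertain. The part of shared reads in its difference was not tested. Of the other 19 V-ATPase genes tested, 0 passed, and the 3 with the smallest p were Atp6v1h at 0.13, Atp6v1f at -0.25 and Atp6ap2 at 0.10 (adjusted p 0.713 each). Gnptg, a subunit of the phosphotransferase that tags lysosomal enzymes, held 31.6, 35.0 and 40.6 CPM in WT and 18.4, 22.9 and 27.1 CPM in KO. The genotypes did not overlap, and it fell by 0.62 (SE 0.0670, adjusted p 5.02e-06). Rnaset2b, one of 2 mouse copies of the lysosomal ribonuclease T2 gene, is described with its copy below.

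A further group of changed genes serves RNA processing, translation and chromatin. Ppil1 encodes a prolyl isomerase of the spliceosome; its WT libraries held 4.94, 7.14 and 8.82 CPM and its KO libraries 2.02, 3.11 and 3.94 CPM. The groups stood apart, and Ppil1 fell by 1.16 (SE 0.128, adjusted p 5.02e-06). Rps2, a protein of the small ribosomal subunit, held 20.9, 28.8 and 34.4 CPM in WT and 8.77, 15.004 and 22.6 CPM in KO, where the highest KO library exceeded the lowest WT library. It fell by 0.92 (SE 0.121, adjusted p 9.49e-05). Of its 75-base stretches, the length of a read, 36.0% also occur in transcripts of other genes, so that its level is uncertain. Rnps1, an RNA-binding protein deposited at exon junctions, fell by 0.41 (SE 0.0648, adjusted p 0.000887), with 8.32% of its stretches shared with Gm9825. Hmga1, a chromatin protein that binds AT-rich DNA, fell by 1.21 (SE 0.182, adjusted p 0.000567), with 46.9% of its stretches shared, mostly with Hmga1b.

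Of the 352 tested genes named Zfp, which encode zinc finger proteins, 4 passed, all on chromosome 17, where 46 were tested. Over all tested genes the share was 0.21%, over all genes of that chromosome other than Glo1 4.33%, and over those between 5 and 10 Mb from Glo1, where these 4 lie, 11.2%, so nothing particular to zinc finger genes is read from this count. Zfp760 held 16.1, 20.7 and 29.6 CPM in WT and 32.0, 39.8 and 48.6 CPM in KO without overlap, and rose by 0.98 (SE 0.105, adjusted p 5.02e-06). Zfp983 held 5.91, 9.92 and 12.8 CPM in WT and 11.6, 16.4 and 17.7 CPM in KO, where 1 KO library lay within the WT range. It rose by 0.75 (SE 0.110, adjusted p 0.000469). Zfp945 rose by 0.52 (SE 0.0882, adjusted p 0.00249), whereas Zfp758 fell by 0.75 (SE 0.119, adjusted p 0.000974), so that neighbouring zinc finger genes moved in both directions.

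Other enzymes among the changed genes were Decr2, Mut, Pla2g7, Enpp4 and Enpp5, which are put together here by role, after the calls were known, and form no tested list. Decr2, the peroxisomal 2,4-dienoyl-CoA reductase of unsaturated fatty acid breakdown, held 12.97, 15.8 and 19.3 CPM in WT and 6.94, 9.41 and 11.0 CPM in KO. The genotypes did not overlap, and it fell by 0.74 (SE 0.0821, adjusted p 5.31e-06). Mut, the mitochondrial methylmalonyl-CoA mutase, rose by 0.44 (SE 0.0693, adjusted p 0.000974). Pla2g7, the acetylhydrolase that inactivates platelet-activating factor, fell by 0.32 (SE 0.0495, adjusted p 0.000659). Enpp4 and Enpp5, neighbouring genes of the ectonucleotide pyrophosphatase family, fell by 0.41 (SE 0.0780, adjusted p 0.00930) and 0.28 (SE 0.0530, adjusted p 0.00847). Enpp5 was the most abundant of the 28 genes in CPM, with WT libraries between 518 and 650 CPM and KO libraries between 372 and 545 CPM.

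Of the changed genes for proteins at or outside the cell surface that are not described in another group, Slc22a3, Sstr5, Prss41 and Fndc1 rose, and Paqr4 fell. This grouping was made after the calls were known, so its balance of directions is not a result. Slc22a3, an organic cation transporter that takes up monoamines, held 8.19, 12.1 and 18.4 CPM in WT and 18.6, 22.5 and 28.1 CPM in KO; the genotypes just failed to meet, and it rose by 0.93 (SE 0.101, adjusted p 5.02e-06). Sstr5, a somatostatin receptor, rose by 2.43 (SE 0.405, adjusted p 0.00206) from a WT median of 0.298 CPM to a KO median of 4.88 CPM. Prss41, a serine protease gene, held 0.598, 0.899 and 4.12 CPM in WT and 4.71, 6.34 and 6.59 CPM in KO, and rose by 2.04 (SE 0.284, adjusted p 0.000236) without overlap. The 2 highest WT libraries of Prss41 stood far above the other 8, as described with the single mice below. Fndc1, a fibronectin type III domain gene, also rose (0.88, SE 0.154, adjusted p 0.00360). Prr18, a proline-rich protein gene, and Paqr4, of the progestin and adipoQ receptor family, each fell by 0.38 (SE 0.0573 and 0.0636, adjusted p 0.000567 and 0.00226).

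In the list of MHC class I and antigen-loading genes, 2 of 13 tested members passed, in opposite directions. Both lie between 5 and 10 Mb from Glo1, where 11.2% of tested genes passed, against 0.21% over all tested genes. Nothing particular to this list is therefore read from the count. The non-classical class I genes H2-T24 and H2-T22 lie on either side of H2-T23; H2-T24 rose by 0.84 (SE 0.146, adjusted p 0.00309) and H2-T22 fell by 0.87 (SE 0.158, adjusted p 0.00528). H2-T22 shares 18.5% of its 75-base stretches with other genes, mostly H2-T10. The next members by p were H2-T23 at -0.90 (adjusted p 0.276), the peptide transporter subunit Tap2 at -0.40 (adjusted p 0.717) and the classical class I gene H2-K1 at -0.15 (adjusted p 0.727). The median over the 13 members was -0.03.

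In the segment farthest below Glo1 lie 3 pairs of genes that share near-identical coding stretches and whose copies are on opposite strands. In each pair 1 or both members changed. Their coding sequences were compared within coding exons of GENCODE M21 on GRCm38. Tagap and Tagap1, GTPase-activating proteins, were identical at 1353 of 1359 aligned coding bases, Rsph3b and Rsph3a, coding for a radial spoke protein of motile cilia, at 1053 of 1054, and Rnaset2b and Rnaset2a at all 777. Only coding stretches with a close match in the partner were aligned, which left 1359 of the 2142 coding bases of Tagap and 1054 of the 1602 of Rsph3b. The windows below, each 1 read long, are those with most differences within these aligned stretches. Sequence outside them can differ more and is not shown. Capitals mark bases that differ, and all windows are printed 5′ to 3′ on the strand of the gene.
Tagap, chr17:7933004-7933078, plus strand: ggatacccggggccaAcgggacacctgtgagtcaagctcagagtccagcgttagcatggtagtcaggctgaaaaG
Tagap1, chr17:6956829-6956903, minus strand: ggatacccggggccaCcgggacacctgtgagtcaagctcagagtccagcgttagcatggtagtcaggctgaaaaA
Rsph3b, chr17:6905046-6905120, minus strand: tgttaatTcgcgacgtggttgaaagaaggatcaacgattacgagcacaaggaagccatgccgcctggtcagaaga
Rsph3a, chr17:7979117-7979191, plus strand: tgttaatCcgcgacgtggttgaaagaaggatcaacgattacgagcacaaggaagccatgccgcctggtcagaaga
Rnaset2b, chr17:6978998-6979072, plus strand, and Rnaset2a, chr17:8147620-8147694, minus strand, with no differing base: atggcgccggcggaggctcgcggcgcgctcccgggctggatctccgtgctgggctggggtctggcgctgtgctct

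The copies of a pair had different values; Rnaset2a and Rsph3a were chosen as partners after the values were seen, and no difference between copies was tested. Tagap held 0.115, 0.875 and 2.39 CPM in WT and 2.49, 3.69 and 4.94 CPM in KO and rose by 1.85 (SE 0.283, adjusted p 0.000659). Tagap1 held 4.36, 6.09 and 8.25 CPM in WT and 2.59, 2.94 and 4.31 CPM in KO and fell by 0.90 (SE 0.130, adjusted p 0.000409), so that neither gene overlapped between genotypes and the changes were opposite in sign. Rnaset2b held 0.206, 1.32 and 2.28 CPM in WT, whereas 6 of the 10 KO libraries had 0 counts and the highest had 0.389 CPM. It fell by 3.43 (SE 0.505, adjusted p 0.000469), from 154 counts over all WT libraries to 12 over all KO libraries. Its copy Rnaset2a had 78 counts over the WT and 64 over the KO libraries, with a log2 fold change of -0.12 (adjusted p 0.942). Rsph3b fell by 1.77 at the limit of the threshold (SE 0.384, adjusted p 0.0492), from 107 to 28 counts in all; it did not pass in 16 of the 19 fits that left out 1 library and still tested it. Rsph3a, too low to be tested, had 80 counts over the WT and 34 over the KO libraries. Of the 75-base stretches, 39.0% for Tagap, 57.1% for Tagap1, 51.4% for Rnaset2b and 56.0% for Rsph3b also occur in other genes, mostly the partner. How the authors' counting assigned shared reads affects these levels, and its part in the differences was not tested.

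The positions of the 28 genes were set against those of all tested genes on the chromosome. Of 624 genes tested on chromosome 17, 28 passed, and of 12656 tested on other chromosomes 0 passed; 31 tested genes had no position. Chromosome 17 genes other than Glo1 reached an unadjusted p under 0.05 in 19.1% of cases, against 5.51% of genes on other chromosomes. The 28 genes ran from 23.7 Mb below the start of Glo1 (GRCm38 chr17:30584936-30626871, minus strand) to 13.5 Mb above it.

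**Figure D2:**
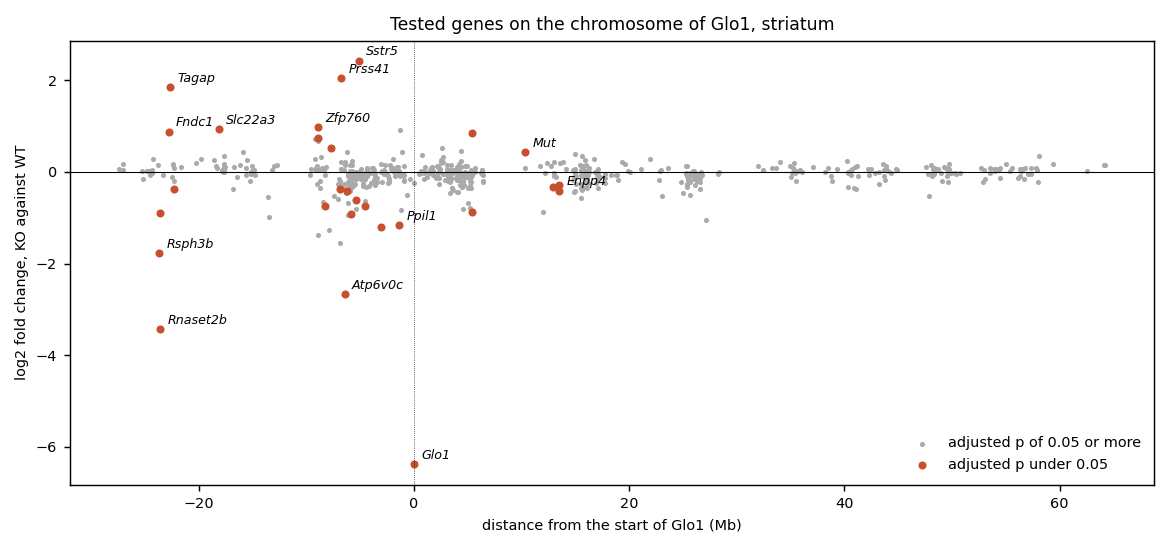
Log2 fold change of KO against WT striatum for each tested gene on the chromosome of Glo1 against its distance from the start of Glo1 in Mb; red points passed an adjusted p of 0.05. The 28 red points lie between -23.7 and 13.5 Mb, and no gene above 13.5 Mb passed.

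The changed genes were not the ones nearest to Glo1. Within 5 Mb, 3 of 192 genes other than Glo1 passed (1.56%), between 5 and 10 Mb 13 of 116 (11.2%), between 10 and 20 Mb 5 of 116 (4.31%) and beyond 20 Mb 6 of 199 (3.02%). At lower coordinates than Glo1, 21 of 232 genes passed (9.05%), and at higher coordinates 6 of 391 (1.53%). The direct neighbours were not past the threshold: Btbd9 had a log2 fold change of -0.23 (adjusted p 0.713), Zfand3 of -0.16 (adjusted p 0.713), Abcg1, a cholesterol transporter, of -0.04 (adjusted p 0.793) and Rsph1 of -0.02 (adjusted p 0.983). Between 0 and 5 Mb above Glo1, 0 of 108 genes passed, and 11 of them reached an unadjusted p under 0.05. Both directions occurred in the same intervals: between 5 and 10 Mb below Glo1, 5 of 86 genes rose and 6 fell. The batch label, the loss of Glo1 and any other sequence difference between the KO and WT chromosomes cannot be told apart in this design.

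Of the 28 genes 16 have an exon that overlaps an exon of another gene. Examples are Gnptg with Unkl, Slc22a3 with Plg, Mut with Cenpq, Prss41 with Prss32 and Paqr4 with Pkmyt1, each on the opposite strand. The sources used here do not say whether strand was used in counting, so reads of such partners cannot be told apart. Pkmyt1, a kinase that inhibits cell division, chosen after its values were seen, had 1.13 ± 0.463 CPM in WT and 0.360 ± 0.217 CPM in KO (mean ± SD, n = 10), with a log2 fold change of -1.55 and an adjusted p of 0.0646. Prss32, chosen in the same way, rose like Prss41 in the edgeR fit without a low-count filter (log2 fold change 1.90, adjusted p 0.0118). The part of Prss32 reads in the level of Prss41 was not tested.

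Single mice stood apart along this chromosome, and several did so in other brain regions too. For each of the 27 changed genes other than Glo1, every library was placed on a scale from 0 to 1. Here 0 is the WT median and 1 the KO median of log2 CPM in the library's own brain region. The median over the genes of a segment was then taken. The genes were called on the striatum libraries, which sets the distance between the genotypes there; the values within a genotype are a description, and these mice were picked after their values were seen. For the 6 genes at 5.38 to 13.5 Mb above Glo1 (H2-T24, H2-T22, Mut, Pla2g7, Enpp5 and Enpp4), the striatum library of WT mouse 273 lay at 0.567, while the other 9 WT libraries lay between -0.176 and 0.0911. The libraries of KO mice 267, 268 and 339 lay at 0.482, 0.523 and 0.486, while the other 7 KO libraries lay between 0.853 and 1.34. WT mouse 273 held 1 of the 2 WT values nearest to KO for all 6 of these genes, and KO mice 267 and 268 held 1 of the 3 KO values nearest to WT for all 6.

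The other regions of these mice were then placed on scales set by each region's own medians. WT mouse 273 again stood apart there, and the KO mice did so in part. Because the scale is set anew in each region, its values are not comparable in size between regions. Enpp5, for instance, had medians of 381 CPM in WT and 385 CPM in KO prefrontal cortex, which leaves its place there poorly defined. For the same 6 genes WT mouse 273 lay at 0.616 in the prefrontal cortex and 0.885 in the hippocampus, outside the range of the other 9 WT mice (-0.219 to 0.162 and -0.407 to 0.309). KO mouse 267 lay at 0.434 and 0.577, KO mouse 268 at 0.832 and 0.530, and KO mouse 339 at 0.756 and 0.906, against 0.891 to 1.35 and 0.519 to 1.36 in the other 7 KO mice. In the hippocampus these 3 KO mice thus lay within the range of the others. Mut shows the pattern in CPM: in the striatum WT mouse 273 held 86.5 CPM and KO mice 267, 268 and 339 held 89.3, 83.9 and 88.0 CPM, between the other WT libraries (72.1 to 84.7 CPM) and the other KO libraries (94.0 to 118 CPM), with a small overlap at the lower end.

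At lower coordinates than Glo1 WT mice 241 and 317 stood apart, though not in every segment and region. For the 7 genes at 18.1 to 23.7 Mb below Glo1 their striatum libraries lay at 0.359 and 0.445, and the other 8 WT libraries between -0.411 and 0.244. Their prefrontal cortex libraries lay at 0.406 and 0.528, above the other 8 WT mice (-0.142 to 0.224). In the hippocampus these 2 mice lay at 0.0952 and 0.0322, within the others (-0.230 to 0.400). The hippocampus medians of Fndc1 (6.88 CPM in WT, 6.91 CPM in KO) and Slc22a3 (0.539 and 0.721 CPM) leave their places there poorly defined. A difference between regions is therefore not read from these values. For the 14 genes from 1.36 to 8.96 Mb below Glo1, mouse 317 lay at 0.450, 0.730 and 0.564 in striatum, prefrontal cortex and hippocampus, and mouse 241 at 0.0572, 0.552 and 0.360. The other 8 WT mice lay between -0.169 and 0.156 in these 3 regions. Sstr5 had a hippocampus median of 0 CPM in both genotypes, so it has no defined place there. For these 14 genes mouse 241 thus stood within the other WT mice in the striatum and apart from them in the other regions. By gene in the striatum, mouse 317 held 1 of the 2 WT values nearest to KO for 12 of the 14 genes, mouse 273 for 7 and mouse 241 for 4. For the 7 genes farther below, mouse 317 did so for 4 and mice 241 and 286 for 3 each. KO mouse 390 held 1 of the 3 KO values nearest to WT for 10 of the 14 genes.

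Prss41, Sstr5 and Fndc1 made WT mice 241 and 317 most visible in the striatum. For Prss41, mice 241 and 317 held 3.99 and 4.12 CPM against 0.598 to 1.72 CPM in the other 8 WT libraries, and in the hippocampus 1.67 and 1.83 CPM against 0 to 0.208 CPM. In the prefrontal cortex mouse 317 held 2.64 CPM, and mouse 241, at 0.345 CPM, lay within the 0 to 0.400 CPM of the others. For Sstr5 they held 2.71 and 3.60 CPM in the striatum against 0.0747 to 0.916 CPM, and 3.60 CPM lay within the KO range of 2.88 to 6.25 CPM. Fndc1 stood at 15.2 and 14.7 CPM against 5.95 to 10.5 CPM. Without the libraries of these 2 mice the log2 fold change of Sstr5 was 3.83 and that of Prss41 2.77. These fits, and that without WT mice 241, 273 and 317 and KO mice 267, 268 and 339, were chosen after seeing the data. They gave 33 and 34 genes, all 28 among them, and leaving out only the 3 KO mice gave 34. The left-out mice were picked for values near the other genotype, so larger differences follow from that choice. Such fits give no further support to the 28 genes.

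**Figure D3:**
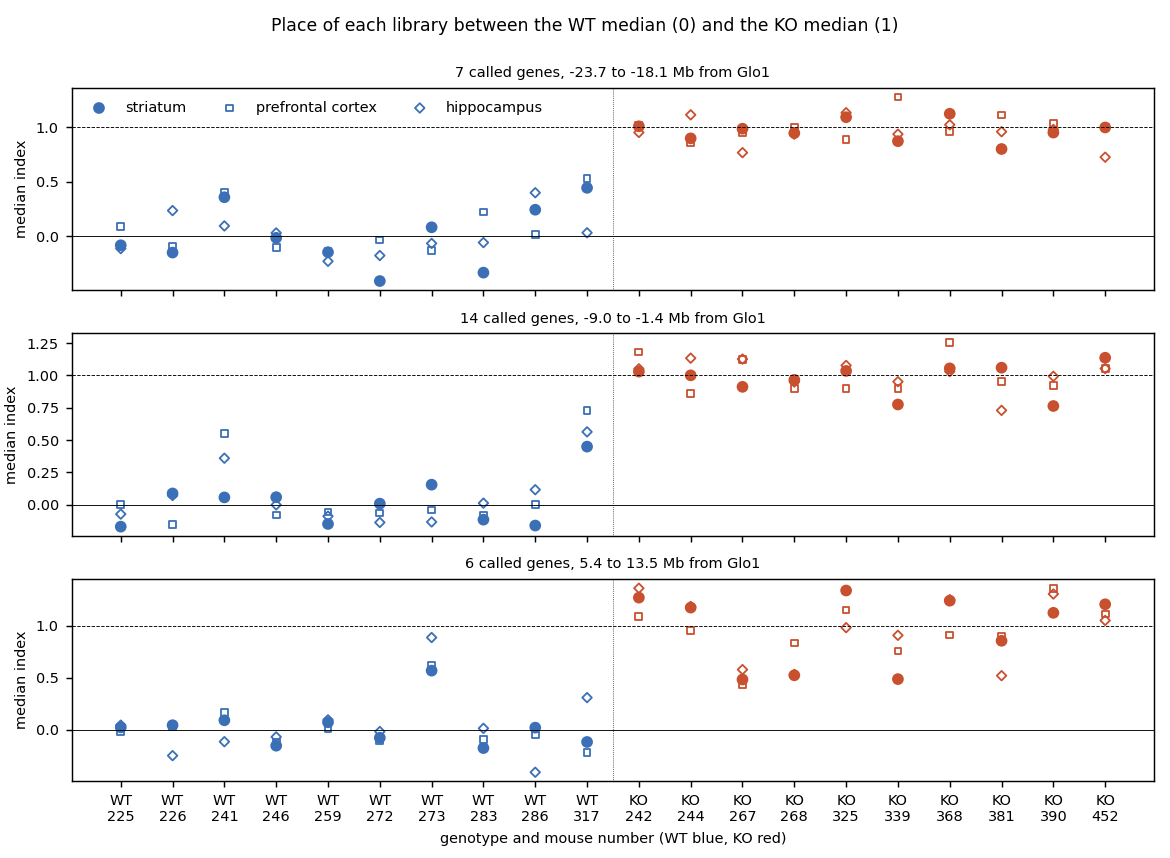
Place of each library between the WT median (0) and the KO median (1) of its brain region, as the median over the changed genes of 3 segments of the chromosome; filled circles are striatum, open squares prefrontal cortex and open diamonds hippocampus, for the 10 WT (blue) and 10 KO (red) mice. In the middle panel WT mouse 317 stands above the other WT mice in all 3 regions and WT mouse 241 in the prefrontal cortex and hippocampus, and in the bottom panel WT mouse 273 and KO mice 267, 268 and 339 have striatum values between 0.48 and 0.57.

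The genotype differences were compared between the diets in a fit of the 4 groups. On the normal diet 8 genes passed (0.0601%) and on the lacking diet 17 (0.128%), all of them among the 28. Of the 28 genes, 28 had the same sign on both diets. The interaction of genotype and diet gave 0 of 13311 genes past the threshold (0%) in edgeR and 0 in DESeq2, with 226 genes at an unadjusted p under 0.05 where 666 would be expected. Among the 28 genes the smallest unadjusted interaction p was 0.0680, for Atp6v0c, which had a log2 fold change of -2.24 (SE 0.313) on the normal and -3.15 (SE 0.328) on the lacking diet. Glo1 stood at -6.43 (SE 0.229) and -6.35 (SE 0.219). Zfp983 had 0.91 (SE 0.155, adjusted p 0.00905) on the normal and 0.60 (SE 0.151, adjusted p 0.259) on the lacking diet, and Hmga1 -0.96 (SE 0.253, adjusted p 0.495) and -1.46 (SE 0.252, adjusted p 0.00896); neither difference between diets passed (unadjusted interaction p 0.160 and 0.177). A gene past the threshold on 1 diet was therefore not shown to differ between diets.

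**Figure D4:**
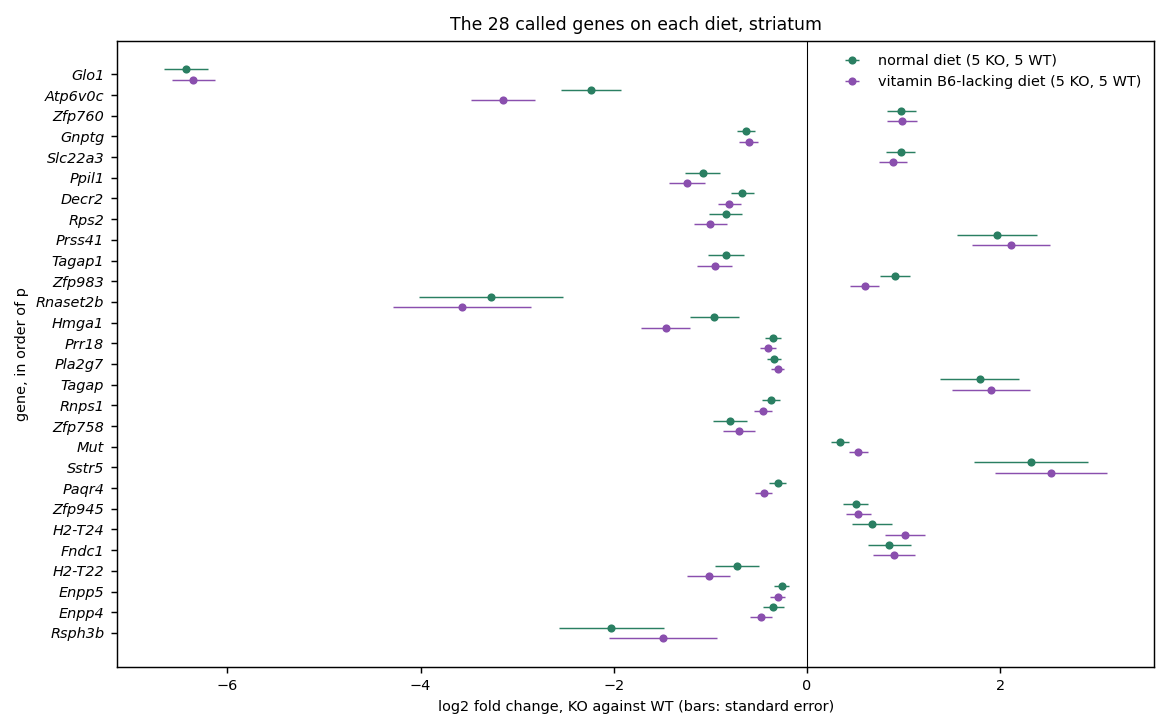
Log2 fold change of KO against WT striatum for the 28 changed genes on the normal diet (green) and the vitamin B6-lacking diet (purple), 5 KO and 5 WT libraries each, with bars of 1 standard error. The 2 values of a gene have the same sign for all 28 genes.

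Other regions of the same mice were used to ask which differences were also seen outside the striatum. The same fit gave 95 of 13223 genes (0.718%) in the prefrontal cortex and 21 of 13393 (0.157%) in the hippocampus. Of the 28 striatum genes, 21 passed in the prefrontal cortex (75.0% of the 28 and 22.1% of the 95) and 19 in the hippocampus (67.9% of the 28 and 90.5% of the 21), and 16 passed in all 3 regions. Slc22a3, Sstr5, Paqr4 and Enpp5 passed in the striatum and in neither other region; Sstr5 was too low to be tested in the other regions and Slc22a3 in the hippocampus. The difference between the striatum and another region was then tested in a fit of all 60 libraries. It gave 0 of 13930 genes (0%) against the prefrontal cortex and 0 against the hippocampus, and an unadjusted p under 0.05 was reached by 1279 and by 809 genes where 696 would be expected. DESeq2 called 3 and 1 genes.

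Enpp5 and Slc22a3 were the changed genes for which DESeq2 called such a difference. Enpp5 had a WT median of 575 CPM and a KO median of 461 CPM in the striatum, against 381 and 385 CPM in the prefrontal cortex and 354 and 364 CPM in the hippocampus. Its log2 fold changes were -0.28, 0.01 and 0.03, and the differences of the striatum from the other regions were -0.29 (SE 0.0627, adjusted p 0.122 in edgeR) and -0.30 (SE 0.0627, adjusted p 0.187). DESeq2 gave these differences adjusted p-values of 0.0145 and 0.0174. Slc22a3 had 12.1 and 22.5 CPM in the striatum (WT and KO medians), 1.76 and 1.38 CPM in the prefrontal cortex and 0.539 and 0.721 CPM in the hippocampus. Its difference between striatum and prefrontal cortex was 1.28 (SE 0.293, adjusted p 0.202 in edgeR and 0.00297 in DESeq2). The third DESeq2 call was Ccr6, a chemokine receptor gene chosen after its values were seen, whose log2 fold change of KO minus WT was lower by 3.59 in the striatum than in the prefrontal cortex (edgeR, adjusted p 0.0793) and which was not among the genes tested in the striatum alone. Fndc1 stood at 0.88 in the striatum, 1.28 in the prefrontal cortex and -0.01 in the hippocampus (adjusted p of the difference from the hippocampus 0.335).

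**Figure D5:**
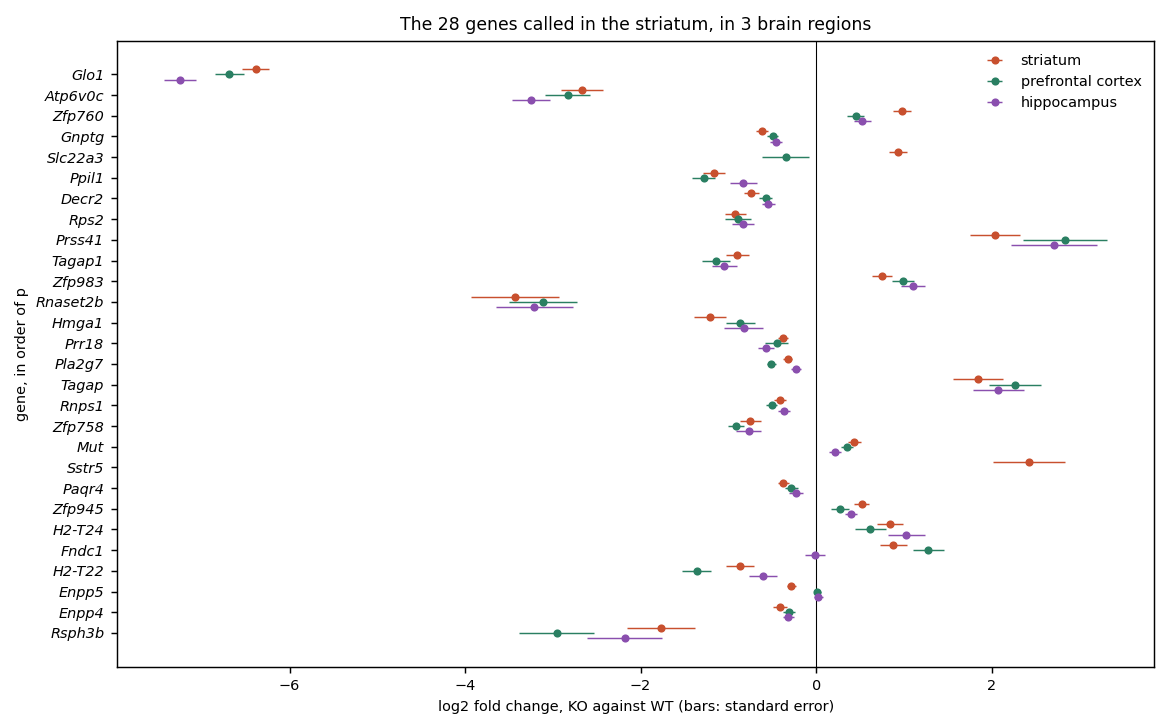
Log2 fold change of KO against WT, with bars of 1 standard error, for the 28 genes changed in the striatum (red) and for the same genes in the prefrontal cortex (green) and hippocampus (purple) of the same mice, 10 KO and 10 WT libraries per region; genes too low to be tested in a region have no point. Values of the 3 regions lie on the same side of 0 except for Slc22a3, Fndc1 and Enpp5.

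Pathways of the study's question were described by counts and medians over gene lists. Of 16 tested genes of methylglyoxal detoxification other than Glo1, 0 passed, and their median was -0.0285. Hagh, glyoxalase 2, singled out after its values were seen, lies 5.76 Mb below Glo1. It held 27.9, 35.3 and 46.4 CPM in WT and 28.6, 37.1 and 46.7 CPM in KO; the groups overlapped almost fully, with a log2 fold change of 0.15 (SE 0.0799, adjusted p 0.713). The members with the smallest p were the formaldehyde-metabolising dehydrogenase Adh5 at -0.21 (adjusted p 0.488), Aldh1a1 at 0.22 (adjusted p 0.713) and Akr7a5 at -0.32 (adjusted p 0.713). Of 7 genes of vitamin B6 salvage and transport, 0 passed, with a median of 0.0442; those with the smallest p were Prosc, a pyridoxal phosphate-binding protein, at 0.07, Aox1 at 0.15 and Slc19a3 at 0.12. Of 9 genes of GABA synthesis, breakdown and transport, 0 passed; Gad2, a GABA-synthesising enzyme that needs pyridoxal phosphate, stood at 0.13 and Gad1 at 0.09 (adjusted p 0.713 each), and the transporter Slc6a11 at -0.13.

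Mitochondrial and stress genes gave 0 calls in each list. The 77 nuclear subunits of oxidative phosphorylation had a median of -0.0316, with 51 below 0, against 6748 of 13311 over all tested genes. Ndufb10 of complex I, on chromosome 17, had the smallest p, at -0.25 (adjusted p 0.276), followed by Cox7a2l at -0.21 (adjusted p 0.700), also on that chromosome, and Ndufs5 at -0.52 (adjusted p 0.713). The 36 genes of glycolysis and the TCA cycle had a median of -0.0376 (Aldoc at -0.20 and Idh3a at 0.09), and the 44 antioxidant and glutathione genes one of -0.0590 (Sod3 at -0.35, Hmox2 at -0.11 and Gpx3 at -0.45). The 38 chaperone genes had a median of 0.0574 (Hsph1 at 0.14, Hspa4 at 0.13 and Cryab at -0.15), and the 23 immediate early genes one of 0.0575 (Homer1 at 0.20, Npas4 at 0.34 and Nr4a3 at 0.38). The 20 V-ATPase genes, Atp6v0c included, had a median of -0.0502.

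Cell type marker lists also held 0 genes past the threshold, and some leaned to one side. Over all 13311 tested genes, 6748 lay below 0 and 821 (6.17%) reached an unadjusted p under 0.05. No list was tested as a whole. Of 20 oligodendrocyte and myelin genes 18 lay below 0, with a median of -0.17, and 10 reached an unadjusted p under 0.05; Olig1 stood at -0.27 (adjusted p 0.397), Cnp at -0.20 and Mog, which lies on chromosome 17, at -0.20 (adjusted p 0.713 each). Their summed level was 6783 to 8529 CPM in WT (median 8019) and 6324 to 8387 CPM in KO (median 7169), with wide overlap. Of 16 microglia genes 14 lay below 0, with a median of -0.15 (Cx3cr1 at -0.19, C1qc at -0.33 and C1qb at -0.30), and sums of 592 to 823 CPM in WT and 567 to 683 CPM in KO. All 7 ependyma genes lay below 0 (median -0.35; Foxj1 at -0.35, Cfap126 at -0.40 and Hydin at -0.51), at sums of only 8.82 to 30.6 CPM in WT and 7.29 to 21.7 CPM in KO. In bulk tissue, fewer cells of a type and less RNA per cell cannot be told apart.

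Neuronal markers showed small medians. For comparison, 6563 of all 13311 tested genes lay above 0 and 6748 below. Of 34 medium spiny neuron genes 23 lay above 0 (median 0.08), with Sh3rf2 at 0.22 (adjusted p 0.503), the neuropeptide gene Tac1 at 0.17 and the cannabinoid receptor Cnr1 at 0.21 (adjusted p 0.713 each); their sums were 23525 to 26043 CPM in WT and 23354 to 27713 CPM in KO. Of 14 striatal interneuron genes 12 lay below 0 (median -0.08; Nos1 at -0.11, Slc18a3 at -0.39 and Sst at -0.21). The cortical projection neuron list, which marks neighbouring cortex, had a median of 0.00633 and sums of 732 to 1034 CPM in WT and 741 to 1205 CPM in KO. The hippocampal list had a median of 0.09, the list of septum, pallidum and other neighbours -0.08, choroid plexus -0.0119, astrocytes -0.0449, endothelium and mural cells -0.0199 and blood 0.0238. Defining markers of choroid plexus were near 0, with Ttr at a median of 0.246 RPKM.

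Outside chromosome 17 the gene with the smallest p was Etnppl, named here after its values were seen, which encodes a pyridoxal phosphate-dependent enzyme that breaks down phosphoethanolamine. Its WT libraries held 20.3, 25.2 and 38.9 CPM and its KO libraries 14.4, 17.8 and 24.4 CPM, with overlap. The log2 fold change was -0.50 (SE 0.114, adjusted p 0.0756 in edgeR), which did not pass; in DESeq2 the adjusted p was 0.00993, and without WT mouse 273, WT mouse 241 or KO mouse 242 it was 0.0302, 0.0436 and 0.0378 in edgeR. Scara3, a scavenger receptor-like gene, and Zfp951 were chosen in the same way. Scara3 followed at -0.40 (adjusted p 0.131) and Zfp951 at -0.63 (adjusted p 0.184).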

How the data were processed

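The authors deposited raw counts per gene and RPKM values for 60 libraries made from poly(A) RNA and read as 75-base single ends, per the labels. STAR 2.7.1a, HTSeq 0.9.1 and mm10 are named in the submitters' processing notes. The 20 striatum libraries were fitted with edgeR 4.0.16 (R 4.3.3; TMM factors, filterByExpr with a minimum count of 10 and total of 15, genotype plus diet, quasi-likelihood test, two-sided, BH over all genes, threshold 0.05); adjusted p-values are from edgeR unless DESeq2 1.42.0 is named. Diets used 4 group means, and regions 12 group means over 60 libraries. CPM use library totals; the floor of 3 counts covers counting error only. The members and gene lists were chosen with earlier results of these data known. Named genes were Glo1, its 2 nearest tested genes on each side, up to 30 genes past the threshold (12 with values per library), from each of 22 lists the genes past the threshold and 3 more of smallest p, and tissue checks; others are said to be chosen later. One gene that this rule names is not reported here. Positions came from GENCODE M21 (GRCm38, the same build as mm10) and RefSeq. The mouse number pairs regions of 1 mouse: mean residual correlation with the striatum was 0.0327 (prefrontal cortex) and 0.0709 (hippocampus) within a mouse, and -0.00795 and -0.0170 between mice of a group. The 40 replicate pairs differed beyond counting error (chi-square per gene of 3.96 to 27.0). Tests were checked on simulated data. Alternatives were DESeq2, limma 3.58.1 on log2(RPKM + 1), other filters, scalings, covariates and designs, and left-out libraries.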

Additional observations from a re-analysis of the deposited data

Results flagged for a closer look

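Within each of the 4 striatum groups of 5, the lowest and highest library were compared with the rest by their gap as a share of the group's range, over library totals, RIN and the 28 changed genes. Of 120 sets of 5 values 8 exceeded the critical share of 0.71, where chance flags about 1 in 20, that is 6. For Sstr5, WT mouse 241 on the lacking diet held 2.71 CPM and its 4 companions 0.241 to 0.571 CPM (share 0.867), WT mouse 317 on the normal diet 3.60 against 0.0747 to 0.916 CPM (share 0.762), and KO mouse 452 on the lacking diet 3.12 against 4.75 to 5.37 CPM (share 0.724). For Prss41, WT mouse 241 held 3.99 against 0.598 to 1.47 CPM (share 0.743), and KO mouse 390 on the normal diet 4.71 against 6.28 to 6.59 CPM (share 0.836). For Rnaset2b, KO mouse 242 on the lacking diet held 0.389 against 0 to 0.0880 CPM (share 0.774) and KO mouse 390 held 0.386 against 0 to 0.0995 CPM (share 0.742). For Glo1, WT mouse 286 on the normal diet held 45.4 against 34.2 to 36.9 CPM (share 0.762).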

How the results depend on the processing

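The count of 28 genes over diets was within 26 to 39 in every alternative that kept both diets, the highest with DESeq2, which included all 28; on single diets it was 8 (normal) and 17 (lacking); each of these contrasts rests on 5 libraries per genotype instead of 10. Leaving out 1 library gave 27 to 33 genes, the highest without WT mouse 273. In these left-out fits 27 of the 28 genes passed each time, and Rsph3b did not. No gene changed direction. In every alternative other than the single diets, 26 passed where they were tested (a mean of at least 1 CPM left Rnaset2b and Rsph3b untested). Prr18 did not pass in the fit of all 60 libraries (adjusted p 0.0774). Rsph3b did not pass in that fit, without a low-count filter or in the robust quasi-likelihood fit. Nor did it pass with RIN as a covariate or with 4 group means averaged over diets. Calls outside chromosome 17 appeared with DESeq2 (Etnppl, Il17rd and Scara3) and with all 60 libraries (Il17rd, Osbpl3 and Zfp951), and also without KO mouse 242 or WT mouse 241 (Etnppl), WT mouse 273 (Etnppl and Scara3) or, chosen after seeing the data, WT mice 241 and 317 (Zfp951). The interaction with diet gave 0 in all alternatives and left-out fits. The region differences gave 0 and 0; with the mouse as a replicate block they were again 0 and 0 (1368 and 942 genes had an unadjusted p under 0.05). Against the prefrontal cortex, library totals without TMM factors gave 2 genes (Ccr6 and Enpp5) and DESeq2 3, and left-out fits 0 to 3 (above 0 without the striatum of KO mouse 339, the prefrontal cortex of WT mouse 241 or the hippocampus of WT mouse 272, 273, 283 or 286); against the hippocampus DESeq2 gave 1 (Enpp5) and left-out fits 0 to 1 (1 without the striatum of WT mouse 241 or KO mouse 339, or the hippocampus of KO mouse 267). The cause of these moves was not tested. Library totals without TMM factors shifted the median of all genes from -0.00208 to -0.0415, which turned the medians of 2 of 22 lists (blood and cortical projection neuron) to below 0. On log2(RPKM + 1) the changes of low genes were smaller, such as -0.55 for Rnaset2b and -1.21 for Atp6v0c.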

Other observations

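Beyond the farthest changed gene, Cntnap5c, a contactin-associated protein gene at 27.1 Mb above Glo1, was named after its values were seen. In the striatum 7 KO libraries held 0.795 to 2.23 CPM, and the libraries of KO mice 267, 268 and 339 held 3.75, 8.06 and 8.53 CPM, against 3.78 to 8.45 CPM in the 10 WT libraries. Over all libraries its log2 fold change was -1.05 (SE 0.331, adjusted p 0.616, edgeR), which did not pass. For the 6 changed genes at 5.38 to 13.5 Mb above Glo1, KO mice 267 and 268 were among the 3 KO mice nearest to WT for 6 genes and mouse 339 for 5. In the prefrontal cortex mice 267 and 268 held 4.29 and 4.38 CPM, within the 2.52 to 6.06 CPM of the other 7 KO mice, and mouse 339, at 6.82 CPM, lay above them. In the hippocampus, where Cntnap5c was higher, they held 14.8, 20.3 and 17.6 CPM, against 10.7 to 17.9 CPM in the other 7 KO mice and 13.5 to 24.5 CPM in WT, so mice 267 and 339 lay within the other KO mice there and mouse 268 above them.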
